A study of Mus musculus with 4 samples.

Results

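The 10 genes *Nlrp3*, *Nod1*, *Pycard*, *Casp1*, *Casp4*, *Gsdmd*, *Casp8*, *Ripk1*, *Ripk3* and *Mlkl* encode sensors, adaptors, caspases, kinases and membrane effectors of the inflammasome and of necroptosis. They were chosen by name, all 10 had a probe, and they stand among 20133 genes that could be named on the arrays. The RNA came from J774 cells (J774.1 in the labels), a mouse monocyte-macrophage line that was kept for 4 hours with DMSO, the solvent, or with MG132, epoxomicin or an ONX compound at 1 μM. MG132 and epoxomicin block the proteasome, the complex that degrades ubiquitin-coupled proteins. The ONX array is labelled ONX-0912 in its treatment tag, whereas the treatment protocol and the Methods name ONX0914, an inhibitor of the β5 and β5i subunits, so it is called the ONX array here. Each condition had 1 array and the cells were a single line without a further replicate, so no difference has a replicate check and no p-value is given. All 3 comparisons with DMSO use the same DMSO array.

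An inflammasome forms when a sensor such as NLRP3 meets signs of infection or damage and gathers the adaptor ASC, which is encoded by *Pycard*. ASC binds caspase-1, which cuts the precursors of IL-1β and IL-18 and the pore protein gasdermin D, and the pores open the membrane in the form of cell death called pyroptosis. Mouse caspase-4, also called caspase-11, binds bacterial lipopolysaccharide inside the cell and cuts gasdermin D without that sensor. Necroptosis takes another route: RIPK1 and RIPK3 pass the signal to MLKL, which breaks the membrane, and caspase-8 holds this route in check. Macrophages are a cell type in which both routes have been studied.

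*Casp4* had by far the largest increase of the 10 genes and *Pycard* was the only gene that was lower with each inhibitor by more than the spread between spots. The promoters of both are shown because they belong to the genes with the largest differences in either direction. The second annotated promoter of *Ripk1* is shown because it held the most motif matches. RefSeq (GRCm38.p6) gave a promoter, 250 bases before and 50 after an annotated start, for 9 of the 10 genes, with 13 promoters in all and none for *Gsdmd*. Capitals mark motif matches, and each sequence runs 5′ to 3′ on the strand of its gene.

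Casp4 promoter 1, chr9:5308599-5308898, plus strand: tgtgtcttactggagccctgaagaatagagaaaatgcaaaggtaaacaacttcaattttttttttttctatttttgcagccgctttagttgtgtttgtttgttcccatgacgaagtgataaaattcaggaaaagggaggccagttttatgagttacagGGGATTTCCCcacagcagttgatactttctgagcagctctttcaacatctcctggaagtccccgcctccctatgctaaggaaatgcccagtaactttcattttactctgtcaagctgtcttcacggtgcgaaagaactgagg

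Pycard promoter, chr7:127993818-127994117, minus strand: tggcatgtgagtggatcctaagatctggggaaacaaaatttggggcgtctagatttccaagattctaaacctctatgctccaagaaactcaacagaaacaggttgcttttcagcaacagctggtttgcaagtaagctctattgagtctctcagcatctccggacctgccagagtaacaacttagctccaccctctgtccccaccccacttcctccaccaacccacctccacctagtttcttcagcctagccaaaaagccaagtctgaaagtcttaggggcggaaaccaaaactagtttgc

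Ripk1 promoter 2, chr13:34002624-34002923, plus strand: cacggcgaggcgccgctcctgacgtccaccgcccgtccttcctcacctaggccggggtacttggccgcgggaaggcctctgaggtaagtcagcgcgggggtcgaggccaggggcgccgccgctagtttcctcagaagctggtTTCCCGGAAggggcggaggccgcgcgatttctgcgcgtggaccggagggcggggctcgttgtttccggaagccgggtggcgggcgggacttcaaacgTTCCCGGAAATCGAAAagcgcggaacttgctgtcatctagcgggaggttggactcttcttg

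Both strands were searched for 4 motifs. These were an ISRE core (GAAA, 2 free bases, GAAA), which is known from interferon-stimulated genes, a GAS (TTCNNNGAA), the site of STAT factors, a kB form (GGGA, 4 free bases, CC), known for NF-kB, and an ARE (TGACNNNGC), known for Nrf2. Of 32851 mouse promoters of the same length, 3.44% held the ISRE core, 8.3% the GAS, 20.7% the kB form and 12.4% the ARE. The capitals in *Casp4* are a kB match at position -92 from the start, where the motif matches on both strands. The second annotated *Casp4* promoter overlaps the first and holds the same match. In *Ripk1* a GAS lies at position -108, and a second GAS at position -11 overlaps an ISRE core at position -5. *Nlrp3* had a kB match in its first promoter and an ARE in its second, and *Nod1* had a GAS. The promoters of *Pycard*, *Casp1*, *Casp8*, *Ripk3* and *Mlkl* held none of these letters. After these matches had been seen, a shorter ISRE core (GAAANNGAA, 8.56% of promoters) and a narrower kB form (GGGANTTCC, 1.68% of promoters) were tried. The shorter ISRE core added a match in *Ripk3*. The narrower kB form left *Nlrp3* without a match and added a second match in *Casp4* at position -39, and because it was chosen with the *Casp4* match in view its low share is not a measure of how unusual that promoter is. A match of letters is not a site in use.

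Values are given first as the processed signal of the array, in arbitrary units, and then as a log2 difference, which was taken after each array was scaled to its 75th percentile. A difference of 1 on that scale is 2-fold, the size used here to count a gene as higher or lower. Apart from an error estimate by the scanner software, the only measured error is that between spots of a probe within an array. For probes printed 10 times it had a largest median SD of 0.0613 on the log2 scale, or 0.0867 for the difference between a pair of spots. For probes with a signal under 1000 the latter was 0.129. This spread covers printing and reading, not culture, RNA or labelling. Signals of different probes are not compared with each other, and fewer transcripts per cell cannot be told apart from fewer cells that express a gene.

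**Figure D1:**
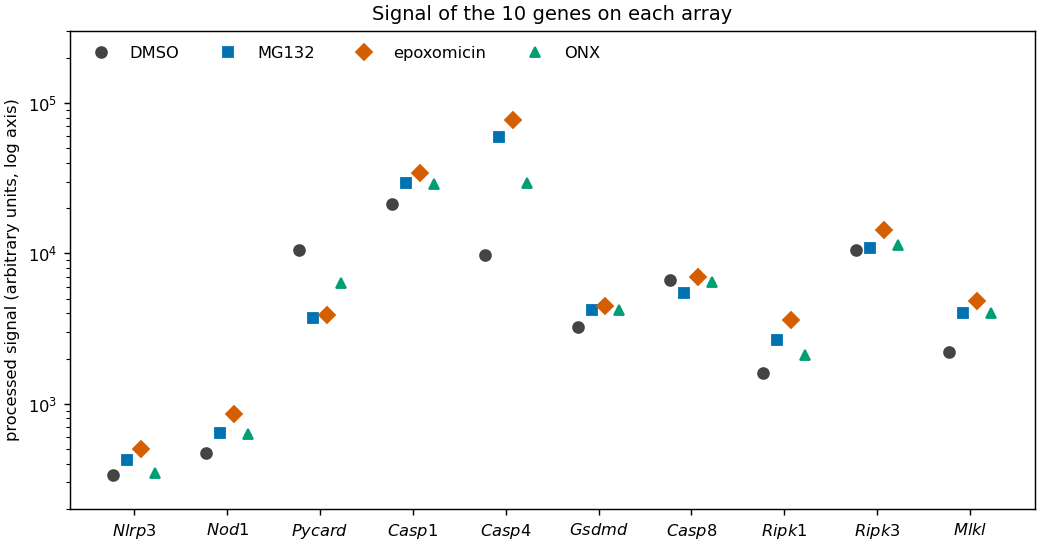
Processed signal (arbitrary units, log axis) of the 10 genes on the DMSO, MG132, epoxomicin and ONX arrays, with 1 point per array and the brightest probe of each gene. *Casp4* goes from 9831 with DMSO to 77680 with epoxomicin, while *Pycard* goes from 10610 to 3872, and *Casp8* stays between 5423 and 6944.

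Among the sensors, *Nlrp3* encodes the sensor protein of the best-known inflammasome. Its signal read 337.8, 424.9, 501.1 and 349.0 on the DMSO, MG132, epoxomicin and ONX arrays. It was above DMSO by 0.52 with MG132 and by 0.55 with epoxomicin on the log2 scale, and its difference with ONX, 0.09, lay within the spread between spots of dim probes. The second probe of *Nlrp3* read 163.4, 194.6, 193.1 and 155.4 in the same order. It gave differences of 0.44, 0.22 and -0.03, so that the probes differed most for epoxomicin. Both probes read under 1000 on every array, and with another background correction (normexp) the differences of the brighter probe were 0.02, -0.03 and -0.34.

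*Nod1* encodes a cytosolic sensor of bacterial peptidoglycan fragments. Its signal was 469.6 (DMSO), 636.5 (MG132), 861.5 (epoxomicin) and 630.6 (ONX), so that the 3 inhibitor arrays all lay above DMSO. The log2 differences were 0.62, 0.86 and 0.46, and none reached 2-fold. With normexp they were 0.23, 0.41 and 0.10.

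*Pycard*, the gene of the adaptor ASC, moved the other way from most of the group. Its signal read 10610, 3699, 3872 and 6319 on the DMSO, MG132, epoxomicin and ONX arrays. DMSO was 2.52-fold above MG132, 2.78-fold above epoxomicin and 1.63-fold above ONX (log2 differences of -1.34, -1.47 and -0.71). Among 12730 genes measured on all 4 arrays, *Pycard* ranked 145 from the lowest with MG132, 121 with epoxomicin and 307 with ONX. DMSO was the highest array and ONX the next, with both steps beyond the variation of spots. MG132 and epoxomicin had no settled order, since epoxomicin over MG132 was -0.14 on the log2 scale after scaling and 0.07 without it.

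*Casp1*, the gene of the caspase that ASC recruits, was higher by less than 2-fold with each inhibitor. Its signal was 21160 (DMSO), 29270 (MG132), 34350 (epoxomicin) and 29120 (ONX). The log2 differences were 0.65, 0.68 and 0.50. MG132 and epoxomicin differed by 0.03 on the log2 scale, less than spots of a probe did, and ONX lay 0.15 below MG132. Both depended on the processing. Epoxomicin over MG132 ran from -0.01 to 0.23 over the alternatives, and ONX over MG132 from -0.33 to -0.0074.

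*Casp4* was the gene with the largest difference. Its signal read 9831, 59400, 77680 and 29230 on the DMSO, MG132, epoxomicin and ONX arrays. All 3 inhibitor arrays lay well apart from DMSO, and ONX lay between DMSO and the other two. The increase was 6.87-fold with MG132, 7.79-fold with epoxomicin and 3.06-fold with ONX (log2 differences of 2.78, 2.96 and 1.61). A second probe of *Casp4* read 6173, 40480, 55010 and 19100 and gave log2 differences of 2.90, 3.14 and 1.67. Among 12730 genes, *Casp4* ranked 88, 99 and 115 from the highest with MG132, epoxomicin and ONX. In RefSeq order *Casp4* lies on chromosome 9 between *Casp1* and *Casp12*, and the latter, a related caspase gene chosen after its values were seen, read only 23.9, 22.9, 20.6 and 15.5, of which the ONX value was not well above background. The lowest signals called well above background on these arrays were 14.7, 17.81, 20.35 and 19.29. *Casp12* thus read too close to background to show whether it moved with *Casp4*. The other neighbour, *Casp1*, was higher by less than 2-fold with each inhibitor.

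*Gsdmd*, the gene of the pore protein gasdermin D, was printed in 10 spots on each array and is the gene with an error of its own. Its signal was 3237 ± 172 (DMSO), 4180 ± 183 (MG132), 4487 ± 153 (epoxomicin) and 4200 ± 151 (ONX) (SD, n = 10 spots of 1 array). The spots with DMSO, 2985 to 3583 before scaling, did not overlap those of any inhibitor array, the lowest of which was 3941. How often this held for other probes printed 10 times was not counted, so it cannot be called particular to *Gsdmd*. Taken position by position, the log2 difference was 0.55 ± 0.05 with MG132, 0.45 ± 0.05 with epoxomicin and 0.42 ± 0.04 with ONX (SD, n = 10 spots). These are spots of a single array and not replicates of a treatment. The increase was 1.47-fold, 1.37-fold and 1.33-fold, and epoxomicin over MG132 was -0.10 on the log2 scale after scaling and 0.10 without it, so that these arrays had no settled order.

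*Casp8*, the gene of the caspase that starts death-receptor apoptosis and restrains necroptosis, differed least. Its signal read 6621, 5423, 6944 and 6434 on the DMSO, MG132, epoxomicin and ONX arrays. The log2 differences were -0.10, 0.05 and -0.00, and those with epoxomicin and ONX lay within the spread between spots. The sign of all 3 depended on how the arrays were scaled.

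The RIP kinase genes differed in size. *Ripk1*, which encodes the kinase that joins death receptors to NF-kB, apoptosis or necroptosis, read 1594, 2637, 3625 and 2098 on the DMSO, MG132, epoxomicin and ONX arrays. The increase was 1.88-fold with MG132, 2.24-fold with epoxomicin and 1.35-fold with ONX (log2 differences of 0.91, 1.17 and 0.44), and each step in the order DMSO, ONX, MG132 and epoxomicin was larger than the spread between spots. *Ripk3*, which encodes the kinase that phosphorylates MLKL, read 10520, 10880, 14320 and 11360. Its log2 differences were 0.23, 0.43 and 0.15, all above 0 and below those of *Ripk1* for the same inhibitor.

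*Mlkl*, the gene of the protein that breaks the membrane in necroptosis, was higher with each inhibitor by similar amounts. Its signal was 2221 (DMSO), 4035 (MG132), 4839 (epoxomicin) and 3993 (ONX). The increase was 2.06-fold with MG132, 2.15-fold with epoxomicin and 1.85-fold with ONX (log2 differences of 1.05, 1.10 and 0.89). MG132 and epoxomicin differed by 0.06 on the log2 scale, no more than spots of a probe do, but by 0.02 to 0.26 over the alternatives. The value for MG132 stood close to the 2-fold limit and fell to 0.86 when no scaling was applied.

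**Figure D2:**
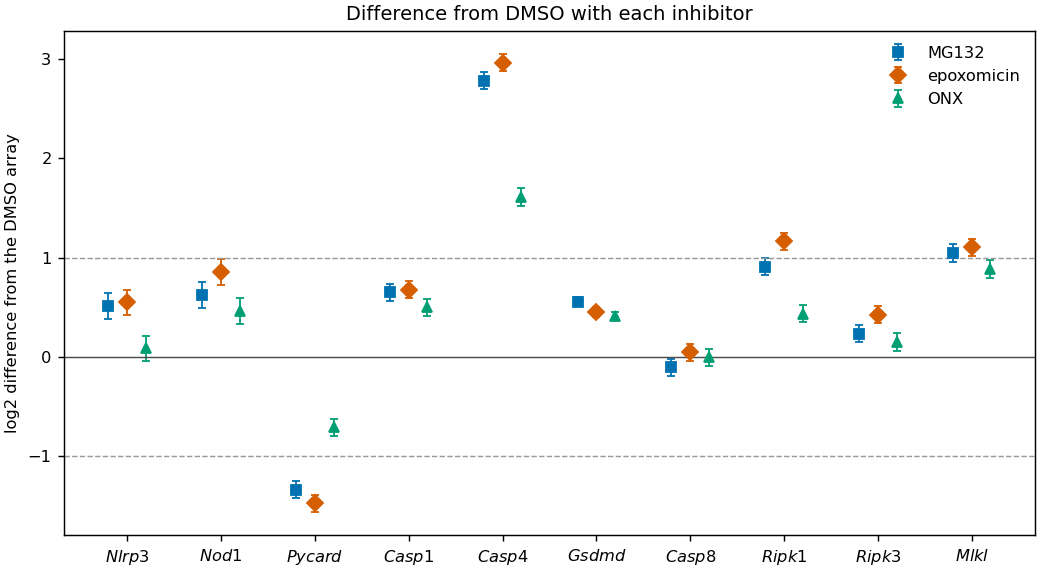
Log2 difference of each of the 10 genes from the DMSO array with MG132, epoxomicin and ONX. Bars show the spread between a pair of spots of a probe (0.0867, or 0.129 for *Nlrp3* and *Nod1* with a mean signal under 1000) and, for *Gsdmd*, the SD over its 10 spots. They cover neither replicate error nor the larger error estimated by the scanner software. Dashed lines mark 2-fold. *Casp4* reaches 2.78, 2.96 and 1.61, and *Pycard* lies at -1.34, -1.47 and -0.71.

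With MG132, 2 of the 10 genes were at least 2-fold higher (*Casp4* and *Mlkl*), where 7.24% of 13771 genes compared were, and 1 was at least 2-fold lower (*Pycard*), where 3.68% were. With epoxomicin, 3 were higher (*Casp4*, *Ripk1* and *Mlkl*) against 8.48% of 13864 genes, and 1 was lower (*Pycard*) against 4.4%. With ONX, 1 was higher (*Casp4*) against 3.27% of 13790 genes, and none was lower against 1.4%. *Casp4* alone was at least 2-fold higher with all 3 inhibitors, as were 2.02% of 13464 genes, and none of the 10 was lower with all 3, as were 0.995%. The 10 genes had median log2 differences of 0.59 (MG132), 0.61 (epoxomicin) and 0.43 (ONX), beside -0.02, -0.04 and -0.01 over all genes. Of all genes, fewer lay above 0 than below it, but their medians were close to 0. The share of all genes above 0 was not counted. With *Hprt* as the only scaling, the median of all genes lay above 0 with MG132 and epoxomicin. Without such a share beside it, the difference was above 0 for 8, 9 and 8 of the 10 genes. The count with epoxomicin includes *Casp8* and that with ONX includes *Nlrp3*, both within the spread between spots.

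**Figure D3:**
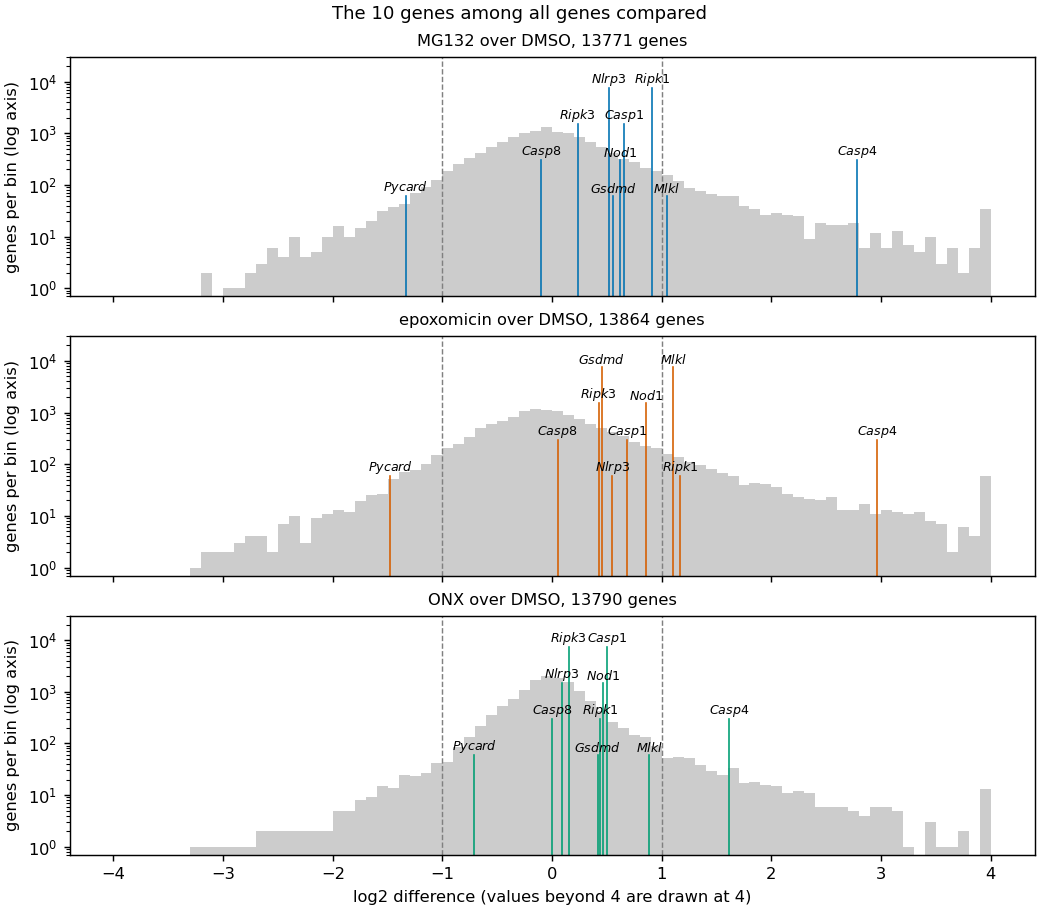
Histograms of the log2 difference from DMSO of all genes compared (13771 with MG132, 13864 with epoxomicin, 13790 with ONX, number of genes on a log axis), with a line for each of the 10 genes. The height of a line only spaces the names. Dashed lines mark 2-fold, *Casp4* stands in the upper tail and *Pycard* in the lower tail of each panel, and *Casp8* lies near 0.

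The inhibitors were given at the same concentration and for the same time, and 3 pairs were compared. Epoxomicin and MG132 gave no 2-fold difference in any of the 10 genes, where 1.52% of 13627 genes differed in either direction. The largest was *Ripk1*, 0.25 higher with epoxomicin on the log2 scale, and the median of the 10 genes was 0.10. Between ONX and MG132 only *Casp4* passed 2-fold, with ONX 2.25-fold lower (-1.17), where 4.11% of 13706 genes passed it in either direction. Between ONX and epoxomicin again only *Casp4* did, 2.55-fold lower (-1.35), where 5.97% of 13791 genes did. *Pycard* was 1.54-fold higher with ONX than with MG132 and 1.70-fold higher than with epoxomicin, that is, nearer to DMSO. The median difference of the 10 genes was -0.16 for ONX over MG132 and -0.25 for ONX over epoxomicin. The former depended on the scaling and was -0.0104 without scaling, -0.0604 after a shift to the median and -0.33 with *Hprt* as the only scaling. Of the genes that passed 2-fold with MG132, the log2 difference with ONX was 0.53 times that with MG132 for *Pycard*, 0.58 times for *Casp4* and 0.85 times for *Mlkl*. With epoxomicin the same ratios were 1.10, 1.07 and 1.06. *Mlkl* thus kept more of its difference with ONX than *Casp4* and *Pycard* did, although with 1 array each this has no test. Genes below 2-fold were given no ratio, so *Mlkl* cannot be called unusual among the 10. Its ratio also rests on a difference with MG132 that ran from 0.86 to 1.25 with the processing.

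The 7 lists of related genes hold 95 genes, of which 89 could be compared with all 3 inhibitors. These lists were not picked for how the genes moved, but earlier results of these data were known. At least 2-fold higher with all 3 inhibitors were 6 genes, and none was lower, beside 2.02% and 0.995% of all genes. *Gbp5*, which encodes a guanylate-binding protein that promotes inflammasome assembly, read 91.6, 1019, 1598 and 770.8 on the DMSO, MG132, epoxomicin and ONX arrays. Its log2 difference with ONX, 3.11, fell to 1.10 under normexp, and all 3 of its differences were smaller there but still past 2-fold. *Gbp2*, whose product helps to expose bacterial lipopolysaccharide to caspase-11, read 1214, 11660, 17350 and 9721, and its increase was 10.9-fold, 14.1-fold and 8.23-fold. *Trim30a*, whose product restrains NLRP3, read 2154, 8204, 10740 and 5001. *Nlrc5*, known as an activator of MHC class I genes, was 5.20-fold, 5.78-fold and 2.94-fold higher, but its second probe gave a log2 difference of 0.97 with ONX, below 2-fold. *Fas*, a death receptor, read 1587, 3557, 3533 and 3862, and so was about as high with ONX as with the other two. *Il1rn*, which encodes the antagonist of the IL-1 receptor, read 18.5, 204.2, 355.2 and 99.7. The DMSO value of *Il1rn* stood close to the lowest signal called well above background on that array (14.7), and under normexp its log2 difference went from 3.65 to 0.27 with MG132, from 4.24 to 0.66 with epoxomicin and from 2.47 to -0.69 with ONX.

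The substrates of caspase-1 moved unequally. *Il1b*, the gene of IL-1β, read 236.4, 558, 1007 and 222.1 on the DMSO, MG132, epoxomicin and ONX arrays, with log2 differences of 1.42, 2.07 and -0.05, the last no larger than between spots of dim probes. Under normexp they were 0.56, 1.13 and -0.63, so that *Il1b* with MG132 no longer reached 2-fold. *Il18* read 1729, 2181, 3071 and 2126, with differences of 0.52, 0.81 and 0.34. *Tnfaip3*, which encodes the A20 protein that restrains RIPK1 and NF-kB signalling, read 537.9, 696.9, 806.7 and 452.6. It was thus above DMSO with MG132 and epoxomicin and below it with ONX, with log2 differences of 0.559, 0.565 and -0.21. For this dim probe they ran over the alternatives from 0.17 to 0.76, from 0.21 to 0.73 and from -0.54 to -0.18. Some further genes were chosen after their values were seen. *P2rx7*, the gene of the ATP-gated channel that triggers NLRP3, read 679, 2730, 3990 and 642.8, and *Mefv*, the gene of the sensor pyrin, read 41.7, 325.9, 510.7 and 75.2. The log2 difference of *P2rx7* with ONX was -0.04, less than that between spots of dim probes. For *Mefv*, a dim probe on the DMSO array, the log2 differences were 3.15, 3.60 and 0.89, and under normexp they were 0.57, 0.92 and -0.90. *Cflar*, whose product binds caspase-8 and controls its activity, read 888.8, 2044, 2177 and 1684, with log2 differences of 1.39, 1.27 and 0.96. The second brightest of its 3 probes gave 0.96, 0.99 and 0.18, below 2-fold with each inhibitor.

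Over all genes, 7.24%, 8.48% and 3.27% were at least 2-fold higher with MG132, epoxomicin and ONX, and 3.68%, 4.4% and 1.4% lower, and the counts of short lists can lie near such shares. By list, 2 of 13 inflammasome sensors compared were at least 2-fold higher with MG132, 2 with epoxomicin and 1 with ONX, with medians of 0.31, 0.24 and 0.09 and none lower. Of 10 genes of inflammasome licensing and control, 4, 5 and 3 were higher and none was lower, with medians of 0.88, 0.63 and 0.30. Of 7 genes of inflammasome products and membrane rupture, 2, 3 and 1 were higher, and 1 was lower with epoxomicin (*Gsdme*, -1.13, chosen after its value was seen). Of 26 genes of the RIPK1 complexes, 3, 3 and 1 were higher and none was lower, with medians of 0.07, 0.06 and 0.11. Of 13 genes of necroptosis triggers and MLKL control, 1, 2 and 0 were higher and none was lower. Of 10 genes of other caspases and the apoptosome, none was higher, and 2, 1 and 0 were lower. These were *Casp6* and *Casp9* with MG132 (-1.07 and -1.06) and *Casp9* with epoxomicin (-1.07), which were also chosen after their values were seen. Of 10 reference genes none was higher and 1 was lower with MG132 and epoxomicin, namely *Gusb*, which read 34060, 10740, 13480 and 26950 and was chosen likewise.

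**Figure D4:**
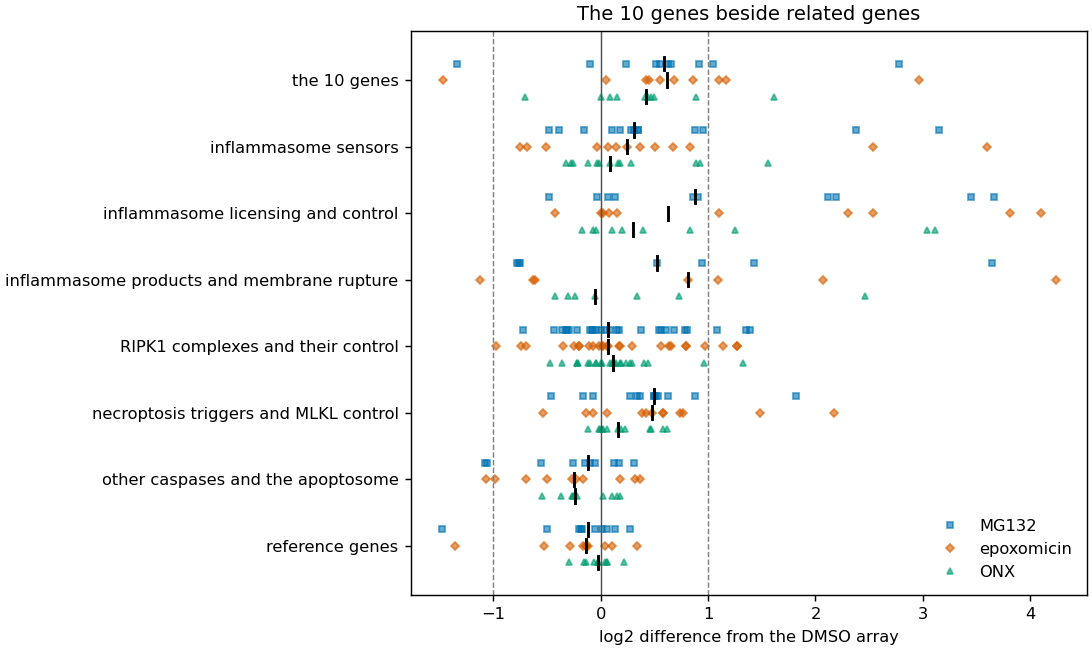
Log2 difference from the DMSO array of the 10 genes and of the genes of 7 related lists, with a point per gene and inhibitor and a black bar at the median. Dashed lines mark 2-fold. The 10 genes have medians of 0.59, 0.61 and 0.43, the genes of the RIPK1 complexes 0.07, 0.06 and 0.11, and the reference genes -0.12, -0.13 and -0.03.

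The arrays were alike in spot quality but not in brightness. Signal at the 75th percentile read 1647, 1448, 1669 and 1603 on the DMSO, MG132, epoxomicin and ONX arrays, lowest with MG132. Of the non-control spots, 60.3% to 63.1% were well above background, 159 to 194 were flagged, and none was saturated. All 21 spots of the 10 genes on each array were well above background, unflagged and unsaturated, and the scanner software gave them an error of 10.0% to 10.3%. This estimate is wider than the spread between spots used above. Small differences called larger than that spread can thus lie within the error of the software. Of 10 macrophage markers, 9 had a probe, and all 9 were well above background on every array. Their summed signal before scaling read 481500, 350900, 402800 and 452300 on the DMSO, MG132, epoxomicin and ONX arrays. After scaling, their median log2 difference was -0.35 with MG132, -0.22 with epoxomicin and -0.04 with ONX. Sum and median were thus lowest on the arrays on which *Pycard* was lowest. With MG132 every marker but *Itgam* (0.35, chosen after its value was seen) lay below DMSO. The part of these markers in the results was not tested. Of 5 markers each of other cell types, 2 of T cells, 1 of B cells, 1 of fibroblasts and 2 of epithelial cells were well above background on all arrays. The T cell markers were *Cd3e* (849.5, 791.9, 603.8 and 735) and *Lck* (1628, 3435, 4468 and 2958), which were chosen from the marker list after their values were seen, and the part of *Lck* in the results was not tested.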

How the data were processed

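RNA of J774 cells was hybridized to 4 single-color arrays on 1 slide. For each spot the authors deposited an intensity, background-subtracted within the array by Feature Extraction 10.7.1.1, and calls of 0 or 1. Log2 values from GeneSpring, deposited as a separate table, served as an alternative. A human design is named in the Methods, but the headers give a mouse design (mm9 grid), so file coordinates were not used. The 10 genes, lists and tests were chosen with earlier results of these data known.

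The log2 of the processed intensity minus the 75th percentile of the array was used. The percentile was taken over all non-control spots, flagged ones included, to follow an earlier processing of these data, and flagged spots were then dropped. A first calculation took it without flagged spots, and values differed little. Spots of a probe were averaged, and the brightest probe stood for a gene. Of 39429 probes, 26565 (67.4% of those with a value) were named by RefSeq accession. A gene entered a comparison if well above background on at least 1 array. A signal not well above background was replaced by a bound, and genes for which the bound gave no fold were left out.

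Named genes are the 10 members, every related gene at least 2-fold from DMSO in the same direction with all 3 inhibitors, *Il1b*, *Il18* and *Tnfaip3*. Others are said to be chosen after their values were seen. Promoter motifs were searched in 2 rounds, and the second forms were chosen after the matches of the first were seen. Alternatives were 16 settings and 1 added later. Python 3.11.15 with numpy 2.4.6 and pandas 2.3.3, and R 4.3.3 with limma 3.58.1 were used, and the calculation was tested on simulated data.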

Additional observations from a re-analysis of the deposited data

How the results depend on the processing

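With 1 array per condition, no replicate could be left out, and no paired analysis was possible because each condition had a single array. Of 450 values of the 10 genes over DMSO under the alternatives, 382 changed by less than the spread between spots (0.0867) and 68 by more. Many of the 382 could not have changed. Every spot of the 10 genes was well above background and unflagged, so settings on bounds, filters, detection calls and flagged spots could not move them. Settings on the choice of probe could move only *Nlrp3* and *Casp4*, which have 2 probes. The 382 therefore overstates how stable the values were. *Casp4* stayed between 2.60 and 2.98 with MG132, 2.89 and 3.14 with epoxomicin and 1.56 and 1.71 with ONX over these alternatives other than the added one. *Casp8* changed sign with all 3 inhibitors, and *Nlrp3* with epoxomicin and ONX. *Mlkl* (0.86 to 1.25) and *Ripk1* (0.73 to 1.12) crossed 2-fold with MG132, and *Nod1* (0.41 to 1.02) with epoxomicin. Whatever the alternative, the cause of a move was not tested.

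The median of the 10 genes moved under normexp to 0.47 with MG132, 0.52 with epoxomicin and 0.31 with ONX, and *Il1rn* reversed to -0.69 with ONX. Under normexp the median of all genes was -0.28, -0.30 and -0.17, and 468, 571 and 192 genes were higher and 2554, 3012 and 2709 lower. Normexp with outlier spots left out of the fit was added after the data were seen. In it 601, 695 and 214 genes were higher and 283, 378 and 74 lower. The member medians there were 0.53, 0.56 and 0.38, below the main values by less than the spread between spots. *Il1rn* did not reverse in that fit. The normexp values given for single genes are those of the first fit, in which far more genes were lower. A shift to the median of all probes gave a median of the 10 genes of 0.49 with MG132 and -0.0604 for ONX over MG132, and 1 gene higher with MG132. There 839 genes were higher and 694 lower with MG132. No scaling gave 0.40 with MG132, 0.31 for epoxomicin over MG132 and -0.0104 for ONX over MG132, again 1 gene higher with MG132, and 739 genes higher and 903 lower with MG132 (all genes -0.20). Scaling to *Hprt* gave 0.79 with MG132, 0.78 with epoxomicin, -0.33 for ONX over MG132 and -0.38 for ONX over epoxomicin, with 1411 and 1527 genes higher and 288 and 382 lower with MG132 and epoxomicin (all genes 0.19 and 0.13). At 1.5-fold, 5, 5 and 2 of the 10 genes were higher and 1 was lower with ONX, and 2055, 2294 and 1054 of all genes were higher and 1782, 1980 and 713 lower. At 4-fold, 1, 1 and 0 of the 10 genes were higher and 0 were lower with MG132 and 0 with epoxomicin, and 269, 336 and 114 of all genes were higher and 48, 60 and 20 lower. In the values the authors made with GeneSpring, 519 genes were higher and 358 lower with ONX. With another detection call 915, 1024 and 630 were lower and 890 higher with ONX. With the processed signal in place of the bound 347 were lower with ONX. Limiting the count to genes measured on all arrays gave 289 higher and 101 lower with ONX.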
